A study of Mus musculus with 12 samples.

Results

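The genes examined here are 10 transporters that carry bile acids, phospholipid and sterols across the membranes of the hepatocyte: Slc10a1, Abcb11, Abcb4, Abcc2, Abcg5, Abcg8, Atp8b1, Abcc3, Slc51b and Abca1. They were chosen by name, and every probe set annotated with 1 of these symbols was taken. Each gene had 1 probe set on the array, so the set is 10 of the 30142 genes that could be named. Expression is given as log2 values, on which a difference of 1 is a doubling. All 10 genes lay above 4.55, the median of all probe sets and the level above which a gene was tested, and are thus 10 of 18725 genes tested.

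The livers came from C57BL/6 males at 12 weeks of age, and their RNA was hybridised to 12 whole-transcript arrays, 4 in each of 3 groups. The labels call the F2 males F2 sons of an obese mother and the F3 males F3 sons of one, while the design text places obese Avy/a females as grandmothers of the first group and great-grandmothers of the second. The control males had lean control parents. Mice with Avy, the viable yellow allele at the agouti locus, become obese. The labels do not give the agouti genotype of the males whose livers were measured, the generation of the control males, or which males shared a litter. No label states that each replicate was a different animal, and p-values therefore refer to the variation among these arrays, some of which may be technical. The F2 and F3 groups were set against the same 4 control arrays. Precision was limited by the number of arrays, and the 95% interval of a difference had a median width of 0.39 over the genes tested.

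Bile acids circulate between liver and intestine. The hepatocyte takes them from portal blood across its sinusoidal membrane and pumps them across its canalicular membrane into bile, together with phosphatidylcholine, cholesterol and conjugated organic anions. When canalicular export is overloaded, carriers in the sinusoidal membrane return bile acids to blood. The nuclear receptor FXR senses bile acids and LXR senses oxysterols, and each acts with the partner RXR on target genes that include several of these transporters.

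All 6 hepatocyte markers, such as Alb and Apob, lay between 12.43 and 13.31 on average over the arrays. Of the 6 measured cholangiocyte markers, 3 lay above the testing level, and Cftr and Tspan8 were at 2.66 and 3.09. In bulk tissue fewer cells of a type and less RNA per cell cannot be told apart. The arrays also fell into 2 sets by their mean level of 337 small nucleolar RNA genes, with 7 arrays between 6.33 and 6.44 and 5 between 5.89 and 6.03. No label marks these sets, and each group has arrays in both. The higher set held F2 replicates 1 and 4, F3 replicates 1, 2 and 3, and control replicates 2 and 4.

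No transporter gene passed the test for a difference between groups. Limma, fitted over all genes and all 12 arrays with Benjamini-Hochberg adjustment, called 0 of 18725 genes in each comparison (0%), and so 0 of the 10. The smallest adjusted p was 0.9999 for F2 minus control, 0.9998 for F3 minus control and 0.9999 for F3 minus F2. An unadjusted p under 0.05 was reached by 0 of the 10 genes in F2 minus control, where 172 of all genes (0.919%) reached it. It was reached by Atp8b1 alone in F3 minus control, against 2.93% of all genes, and by Abcb11 alone in F3 minus F2, against 2.37% of all genes. Arrays of the groups compared overlapped for all 10 genes. Over all genes the arrays did not overlap for 0.705% in F2 minus control, 1.63% in F3 minus control and 2.46% in F3 minus F2. The plot of levels per array shows the overlap for each gene.

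**Figure D1:**
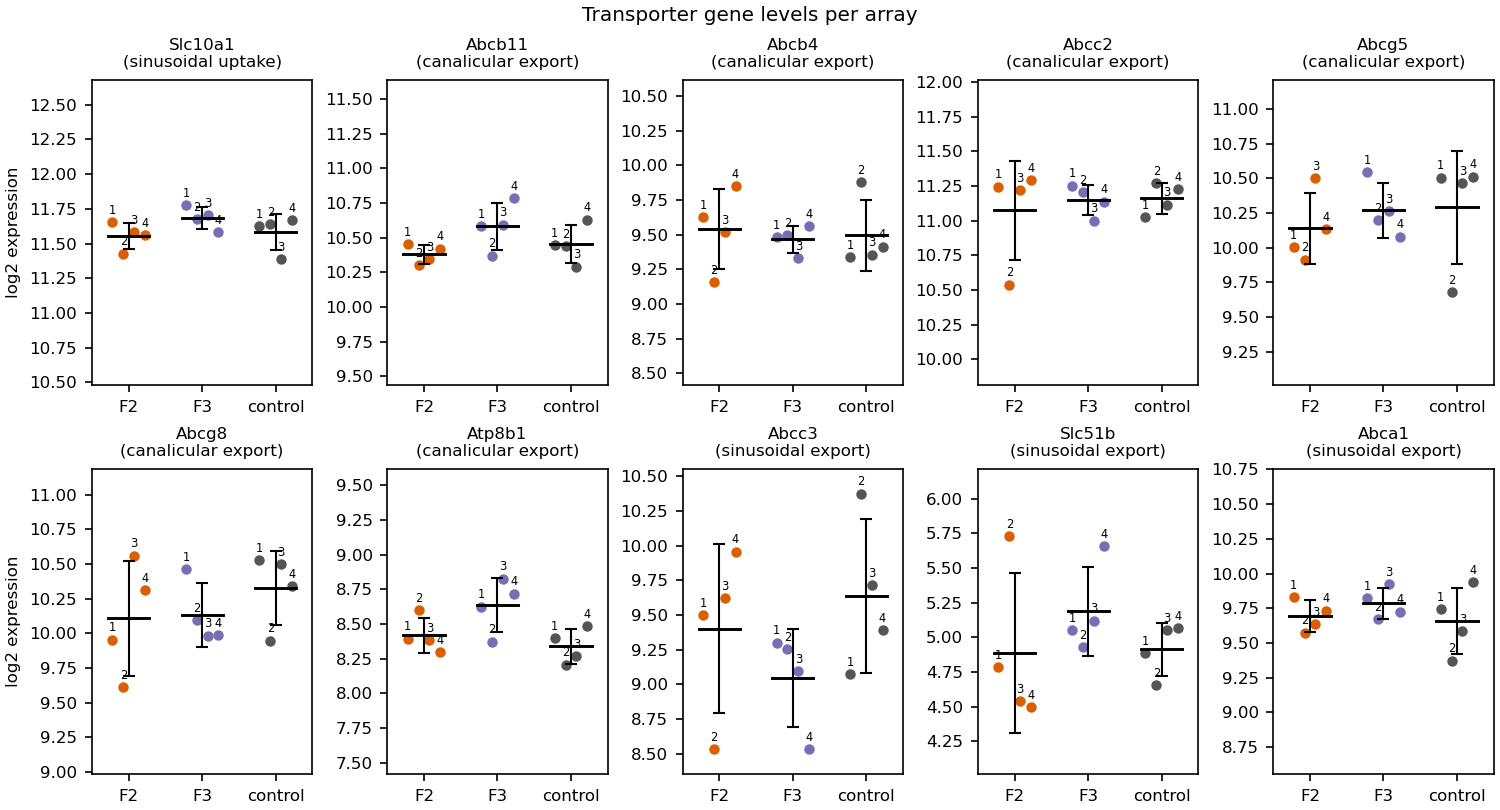
Log2 expression of the 10 transporter genes in each array, by group (F2, F3, control). Points are arrays with their replicate number, horizontal bars are group means and error bars are SD (n = 4 arrays per group); every panel spans the same number of log2 units. Groups overlap in every panel, and F2 replicate 2 and control replicate 2 are the arrays at the ends of the range for Abcc3 and Abcb4.

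Uptake from portal blood is represented by Slc10a1, which encodes NTCP, the sodium-dependent carrier that takes conjugated bile acids into the hepatocyte. Slc10a1 measured 11.66, 11.43, 11.58 and 11.56 in F2 livers, 11.78, 11.68, 11.70 and 11.58 in F3 livers, and 11.63, 11.64, 11.39 and 11.67 in control livers. The F3 arrays reached highest, and control replicate 3 was the lowest of all 12. The F2 mean was 11.56 ± 0.10 and the F3 mean 11.68 ± 0.08, against 11.58 ± 0.13 in controls (SD, n = 4 each). The difference was −0.03 (95% interval −0.19 to 0.14) for F2 minus control and 0.10 (−0.06 to 0.27) for F3 minus control, and quantile normalization turned the F3 value to −0.014. Slc10a1 was the steadiest of the 10, with an SD over the 12 arrays of 0.11, below the median of 0.12 for all genes tested. It was higher in the set of arrays with more small nucleolar RNA, at 11.67 ± 0.07 (SD, n = 7), than in the other set, at 11.52 ± 0.11 (SD, n = 5), and the part of this in the group values was not tested.

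Export of bile salts into bile rests on Abcb11, the bile salt export pump. Abcb11 measured 10.45, 10.30, 10.34 and 10.42 in F2 livers, 10.58, 10.37, 10.59 and 10.79 in F3 livers, and 10.45, 10.44, 10.29 and 10.63 in control livers. Of the F3 arrays 3 lay above all F2 arrays, and replicate 2 lay among them. F3 averaged 10.58 ± 0.17 and F2 10.38 ± 0.07 (SD, n = 4 each), a difference of 0.20 (95% interval 0.01 to 0.40, limma unadjusted p = 0.0446, adjusted p = 0.9999). It ranged from 0.14 without F3 replicate 4 to 0.27 without F3 replicate 2, and was 0.08 within the higher array set and 0.46 within the lower one, where F3 had a single array. Against controls, at 10.45 ± 0.14 (SD, n = 4), the difference was −0.07 for F2 (−0.27 to 0.13) and 0.13 for F3 (−0.07 to 0.33). The F3 value was −0.02 within the higher array set and 0.42 within the lower one.

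The promoter of Abcb11 is shown because FXR acts on this gene through an inverted repeat of its half-site. The window from 250 bases before to 50 bases after the RefSeq start (GRCm38.p6, chr2:69342567-69342866, minus strand) is printed 5′ to 3′, with matches to the repeat in capitals. The repeat was written as AGGTCA, any 1 base, then TGACCT, and was sought on both strands with at most 2 mismatches in the 12 fixed bases.
Abcb11: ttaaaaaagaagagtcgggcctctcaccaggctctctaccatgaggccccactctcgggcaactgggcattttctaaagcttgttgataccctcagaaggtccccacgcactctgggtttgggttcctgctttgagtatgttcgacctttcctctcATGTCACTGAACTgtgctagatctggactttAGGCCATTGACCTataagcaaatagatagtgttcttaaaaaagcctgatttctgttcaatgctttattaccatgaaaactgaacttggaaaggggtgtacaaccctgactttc
The match that starts at position −63 has 1 mismatch, and that at −94 has 2. A match with at most 2 mismatches occurred in 374 of 32851 promoter windows (1.14%), and one with at most 1 mismatch in 27 (0.082%). The half-site AGGTCA, which overlaps the repeat, occurred on either strand in 16.3% of windows. Among the other 7 genes whose windows were read, none held a match to the repeat in its window, which says only that these letters are not there. No window was read for Abcc3 or Atp8b1, so nothing is said of their promoters.

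Atp8b1 and Abcb4 act on the lipid of the canalicular membrane. Atp8b1 encodes FIC1, an aminophospholipid flippase that keeps this membrane ordered, and it had the largest difference relative to its error of the 10 genes. Atp8b1 measured 8.39, 8.60, 8.38 and 8.30 in F2 livers, 8.62, 8.37, 8.83 and 8.72 in F3 livers, and 8.40, 8.21, 8.27 and 8.48 in control livers. Of the F3 arrays 3 lay above all control arrays, while replicate 2 lay within the control range. F3 averaged 8.63 ± 0.19 and controls 8.34 ± 0.13 (SD, n = 4 each), a difference of 0.30 (95% interval 0.07 to 0.52), or 1.23-fold, with limma's unadjusted p = 0.0128 and adjusted p = 0.9998. The difference stayed between 0.23 and 0.38 when any 1 array was left out. It was 0.26 within the higher array set and 0.39 within the lower one, where F3 had a single array. F2 averaged 8.42 ± 0.13 (SD, n = 4), 0.08 above controls (−0.14 to 0.30), and F3 minus F2 was 0.22 (−0.004 to 0.44).

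Tmem30a encodes CDC50A, the subunit that P4-type flippases such as FIC1 need to leave the endoplasmic reticulum, and was among the partner genes examined. Tmem30a measured 7.77, 7.54, 7.77 and 7.80 in F2 livers, 7.80, 7.84, 7.88 and 7.86 in F3 livers, and 7.74, 7.73, 7.44 and 7.70 in control livers. All 4 F3 arrays lay above all control arrays, and narrowly above all F2 arrays (lowest F3 array 7.7985, highest F2 array 7.7969). In F3 minus control the arrays did not overlap for 1 of 18 other exporters and partners tested, against 1.63% of all genes. The same count held in F3 minus F2, against 2.46% of all genes. The F3 minus control difference was 0.19 (SE 0.080), with an adjusted p of 0.9998 by limma, so it did not pass the test.

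Abcb4, also called Mdr2, moves phosphatidylcholine to the outer leaflet for release into bile. Abcb4 measured 9.63, 9.16, 9.52 and 9.85 in F2 livers, 9.48, 9.50, 9.33 and 9.56 in F3 livers, and 9.34, 9.88, 9.36 and 9.41 in control livers. The 2 ends of its range were F2 replicate 2 and control replicate 2, and the F3 arrays lay between them. The difference was 0.04 (95% interval −0.27 to 0.36) for F2 and −0.03 (−0.35 to 0.29) for F3 against controls. Leaving out 1 array moved the F2 value between −0.06 and 0.17 and the F3 value between −0.08 and 0.10, so neither had a settled direction.

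Abcc2, or MRP2, exports bilirubin glucuronide and other conjugates into bile. Abcc2 measured 11.25, 10.54, 11.22 and 11.29 in F2 livers, 11.25, 11.21, 11.00 and 11.14 in F3 livers, and 11.02, 11.27, 11.11 and 11.23 in control livers. F2 replicate 2 stood 0.46 below the next lowest array of the 12, and the other 11 lay between 11.00 and 11.29. F2 minus control was −0.08 (95% interval −0.40 to 0.23), and 0.09 without F2 replicate 2. F3 minus control was −0.01 (−0.32 to 0.30).

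**Figure D2:**
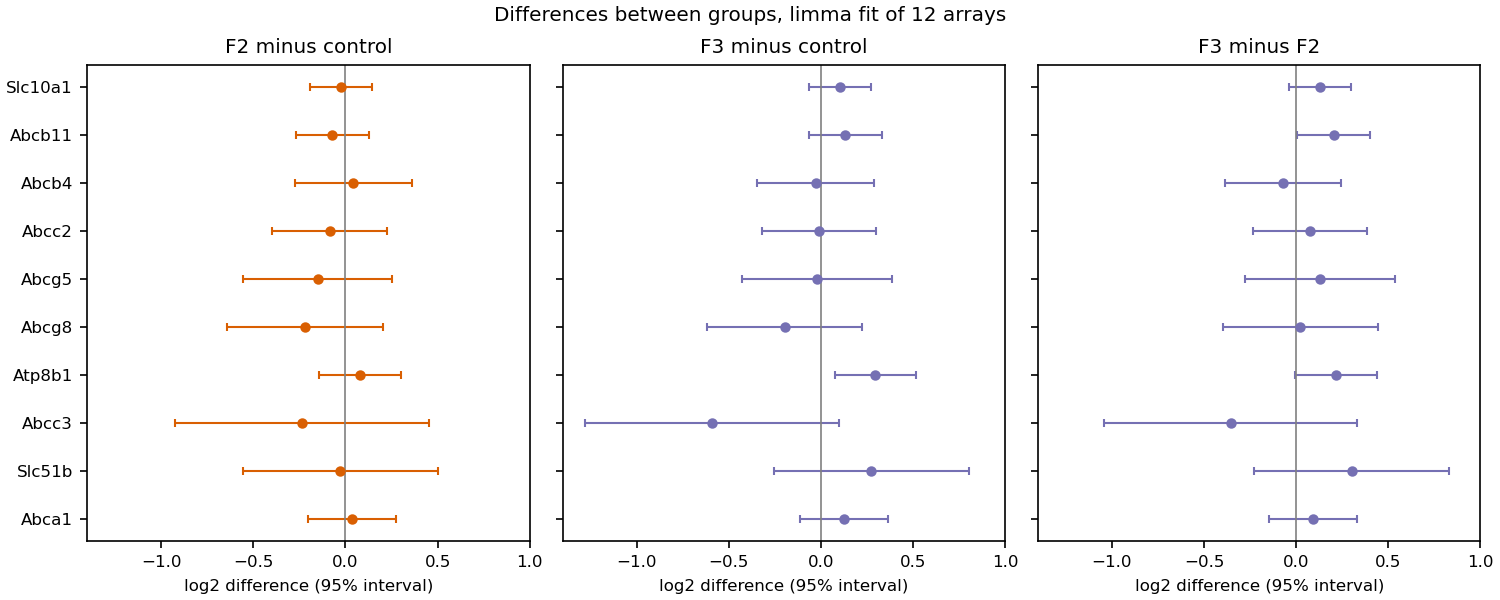
Log2 differences of the 10 transporter genes for F2 minus control, F3 minus control and F3 minus F2, with 95% intervals from the limma fit of all 12 arrays. Intervals are narrow for Slc10a1 and Abcb11 and wide for Abcc3 and Slc51b; those of Atp8b1 in F3 minus control and Abcb11 in F3 minus F2 lie above 0 before adjustment.

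Sterol export into bile depends on Abcg5 and Abcg8, which work only as a heterodimer that secretes cholesterol and plant sterols. Abcg5 measured 10.004, 9.91, 10.50 and 10.13 in F2 livers, 10.54, 10.20, 10.26 and 10.08 in F3 livers, and 10.50, 9.68, 10.46 and 10.51 in control livers. Control replicate 2 was the lowest of the 12 and the other 3 controls were among the highest. F2 averaged 10.14 ± 0.26 and F3 10.27 ± 0.20, against 10.29 ± 0.41 in controls (SD, n = 4 each), with differences of −0.15 (95% interval −0.56 to 0.25) and −0.02 (−0.43 to 0.39). Without control replicate 2 these were −0.35 and −0.22.

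Abcg8 measured 9.95, 9.61, 10.56 and 10.31 in F2 livers, 10.46, 10.10, 9.98 and 9.98 in F3 livers, and 10.53, 9.95, 10.50 and 10.34 in control livers. F2 replicate 2 was the lowest and F2 replicate 3 the highest of the 12, so the F2 group alone spanned the whole range. F2 averaged 10.11 ± 0.41 and F3 10.13 ± 0.23, against 10.33 ± 0.27 in controls (SD, n = 4 each). The differences were −0.22 (95% interval −0.64 to 0.20) and −0.20 (−0.62 to 0.23), and the F2 value ranged from −0.37 without F2 replicate 3 to −0.05 without F2 replicate 2. The F3 value ranged from −0.32 without control replicate 2 to −0.13 without control replicate 1.

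Both genes followed each other from array to array. Over the 12 arrays Pearson's r was 0.84 (permutation p = 0.00085, adjusted over all 45 pairs of the 10 genes 0.0191) and Spearman's rho was 0.83 (permutation p = 0.00119, adjusted 0.0268). Without F2 replicate 2 and control replicate 2, the arrays farthest from the median of Abcg5, r was 0.85 (permutation p = 0.00592, adjusted 0.0666). It was 0.85 after the group means were taken out, 0.83 after the means of both array sets were taken out, and 0.77 within the higher set. Among 13558 other protein-coding genes tested, Abcg8 ranked 20th by its r with Abcg5, and Abcg5 ranked 16th by its r with Abcg8.

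The promoters of this pair are shown because the genes lie head to head on opposite strands. Their RefSeq start sites on chromosome 17 (GRCm38.p6) are 110 bases apart, and the windows chr17:84682962-84683261 (Abcg5, minus strand) and chr17:84682871-84683170 (Abcg8, plus strand) share 209 bases, in capitals below. Each sequence is read 5′ to 3′ on the strand of its gene, so the capitals of one are the reverse complement of the other.
Abcg5: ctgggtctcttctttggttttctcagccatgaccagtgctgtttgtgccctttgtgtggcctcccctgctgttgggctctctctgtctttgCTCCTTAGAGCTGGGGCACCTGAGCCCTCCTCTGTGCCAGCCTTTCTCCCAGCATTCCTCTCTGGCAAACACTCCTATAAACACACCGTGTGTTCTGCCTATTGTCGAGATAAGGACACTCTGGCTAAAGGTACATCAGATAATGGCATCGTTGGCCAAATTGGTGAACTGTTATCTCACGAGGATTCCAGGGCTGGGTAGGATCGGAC
Abcg8: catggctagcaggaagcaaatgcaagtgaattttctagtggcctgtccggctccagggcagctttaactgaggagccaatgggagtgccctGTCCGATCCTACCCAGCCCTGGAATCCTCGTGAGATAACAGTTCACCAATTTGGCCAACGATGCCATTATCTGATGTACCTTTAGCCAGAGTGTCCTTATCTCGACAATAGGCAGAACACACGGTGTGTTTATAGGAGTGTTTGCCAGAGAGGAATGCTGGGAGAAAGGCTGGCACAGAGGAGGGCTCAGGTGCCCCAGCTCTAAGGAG
The shared stretch holds 3 copies of the GATA box AGATAA, counting both strands. A window with this box on either strand is common, at 11.2% of all promoter windows. The direct repeat that LXR binds was written as AGGTCA, any 4 bases, then AGGTCA. No match to it was found in either window on either strand with at most 2 mismatches, while 3.02% of all windows held one. Of 27025 genes with a window, 3212 (11.9%) share bases with the window of another gene on the opposite strand.

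**Figure D3:**
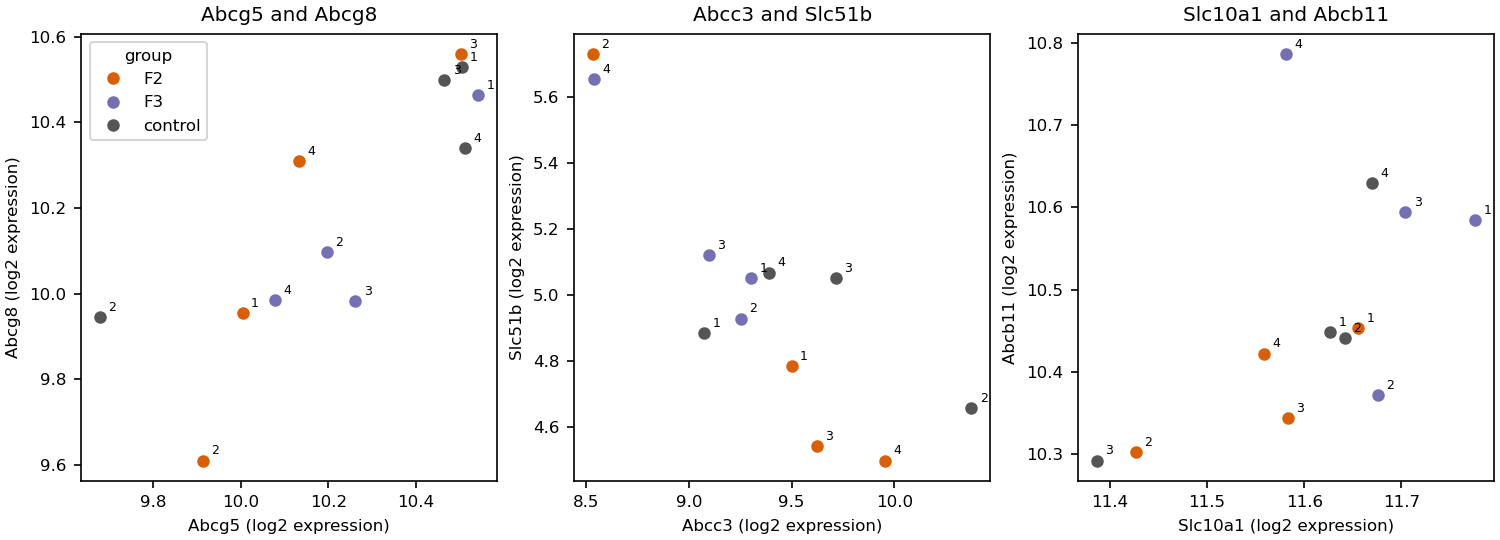
Log2 expression of 3 pairs of transporter genes over the 12 arrays: Abcg5 and Abcg8, Abcc3 and Slc51b, and Slc10a1 and Abcb11. Points are arrays, coloured by group and marked with the replicate number; Abcg5 and Abcg8 go together (r = 0.84), Abcc3 and Slc51b go in opposite directions (r = −0.85), and Slc10a1 and Abcb11 are loosely related (r = 0.55).

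Return of bile acids to blood is carried by Abcc3 and Slc51b. Abcc3, or MRP3, exports glucuronides and bile acids across the sinusoidal membrane and varied most of the 10 genes. Abcc3 measured 9.50, 8.53, 9.62 and 9.96 in F2 livers, 9.30, 9.25, 9.10 and 8.54 in F3 livers, and 9.07, 10.37, 9.72 and 9.39 in control livers. F2 replicate 2 and F3 replicate 4 were lowest and control replicate 2 was highest, 3.58-fold above the lowest array. The SD over the 12 arrays was 0.53, above that of 98.4% of genes tested.

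F3 averaged 9.05 ± 0.35 and controls 9.64 ± 0.56 (SD, n = 4 each), an Abcc3 difference of −0.59 (95% interval −1.28 to 0.10, limma unadjusted p = 0.0856, adjusted p = 0.9998). It was −0.35 without control replicate 2 and −0.78 without control replicate 1. It was −0.67 in the higher array set and −0.86 in the lower one, where F3 had only replicate 4. F2 averaged 9.40 ± 0.61 (SD, n = 4), a difference from controls of −0.24 (−0.92 to 0.45) that turned to 0.05 without F2 replicate 2.

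Slc51b encodes the beta subunit of the organic solute transporter, a bile acid carrier of the basolateral membrane that FXR induces. Slc51b measured 4.78, 5.73, 4.54 and 4.50 in F2 livers, 5.05, 4.93, 5.12 and 5.66 in F3 livers, and 4.88, 4.66, 5.05 and 5.07 in control livers. F2 replicate 2 and F3 replicate 4, the arrays lowest in Abcc3, were the highest here. The gene was dim: its mean of 4.997 lay between the median of 5222 negative control probe sets (4.24) and their 95th percentile (7.05), whereas the other 9 transporter genes lay above that percentile. The difference was −0.03 (95% interval −0.56 to 0.50) for F2 and 0.27 (−0.26 to 0.80) for F3 against controls. Without F2 replicate 2 the F2 value was −0.31, and without F3 replicate 4 the F3 value was 0.12.

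The Slc51b window (GRCm38.p6, chr9:65422724-65423023, minus strand) is printed beside that of Abcb11 for comparison, since both are FXR targets. The capitals mark the only copy of the half-site AGGTCA.
Slc51b: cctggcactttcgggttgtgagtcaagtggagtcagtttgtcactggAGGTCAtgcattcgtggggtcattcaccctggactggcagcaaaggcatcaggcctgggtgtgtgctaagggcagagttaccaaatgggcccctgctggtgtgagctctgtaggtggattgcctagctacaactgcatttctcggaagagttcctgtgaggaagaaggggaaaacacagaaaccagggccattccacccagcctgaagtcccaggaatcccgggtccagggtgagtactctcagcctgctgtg
The half-site lies at position −203, within a match with 2 mismatches to the direct repeat, and no match to the inverted repeat was found.

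Abca1 passes cholesterol and phospholipid from the hepatocyte to apolipoprotein A-I, the first step of HDL formation. Abca1 measured 9.83, 9.57, 9.64 and 9.73 in F2 livers, 9.82, 9.67, 9.92 and 9.73 in F3 livers, and 9.74, 9.37, 9.58 and 9.94 in control livers. Control replicates 2 and 4 were the ends of its range. F2 minus control was 0.03 (95% interval −0.20 to 0.27) and F3 minus control 0.13 (−0.11 to 0.36), and the F3 value was 0.03 without control replicate 2.

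Uptake and the canalicular genes were set side by side as deviations of each gene from its own mean over the 12 arrays. Slc10a1 deviated by −0.05 ± 0.10 in F2, 0.08 ± 0.08 in F3 and −0.03 ± 0.13 in controls (SD, n = 4 each). The 6 canalicular genes include Atp8b1, a flippase of this membrane and not an exporter into bile. Their mean deviation was −0.05 ± 0.18 in F2, 0.04 ± 0.09 in F3 and 0.01 ± 0.08 in controls (SD, n = 4 each). Uptake minus this canalicular mean was 0.004 ± 0.13 in F2, 0.04 ± 0.08 in F3 and −0.04 ± 0.14 in controls. It ranged from −0.22 in control replicate 3 to 0.13 in F2 replicate 2. The groups overlapped in this measure, and their means lay within 1 SD of each other. No p is given for it, since it is a score over chosen genes. With Abcb11 alone in place of the 6 canalicular genes, the order of the groups changed. Slc10a1 minus Abcb11 was 0.04 ± 0.05 in F2, −0.03 ± 0.22 in F3 and −0.006 ± 0.07 in controls (SD, n = 4 each).

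Slc10a1 and Abcb11 did not pass the test for a relation over arrays. Their r was 0.55 (permutation p = 0.066, adjusted 0.221) and rho was 0.57 (permutation p = 0.0572, adjusted 0.198). Without F2 replicate 2 and control replicate 3, low for both genes, r was 0.18. Within the higher array set, which holds neither of these arrays, it was 0.56 (n = 7), and in the lower set 0.55 (n = 5).

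**Figure D4:**
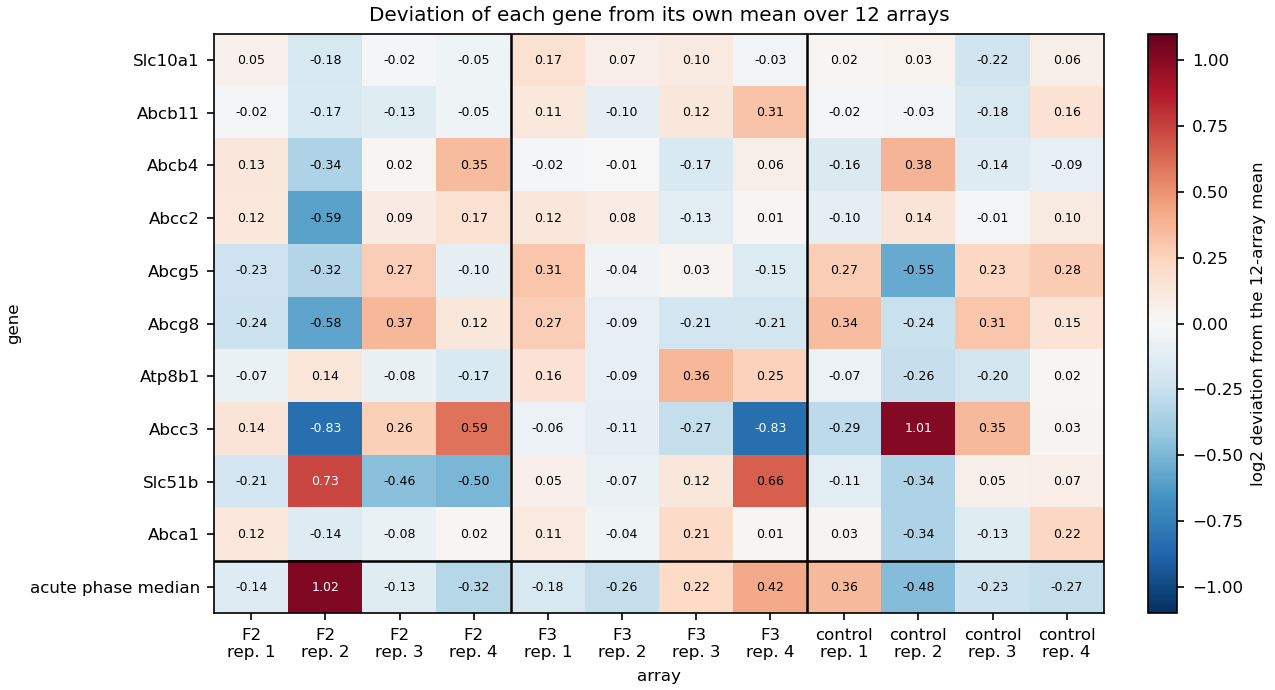
Deviation of each transporter gene from its own mean over the 12 arrays (log2 units, colour and printed number), with arrays in columns by group and the median deviation of 16 acute phase genes in the bottom row. F2 replicate 2 stands out with low Abcc3 (−0.83), Abcc2 (−0.59) and Abcg8 (−0.58) and high Slc51b (0.73), and control replicate 2 with high Abcc3 (1.01) and low Abcg5 (−0.55).

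Group membership held between 2.08% (Abcb4) and 47.4% (Atp8b1) of the variance of each transporter gene over arrays, and the rest lay within groups. These shares were not tested, and the means of groups this small hold part of the variance by chance alone. F2 replicate 2 was the lowest array for Abcb4, Abcc2, Abcg8 and Abcc3. Control replicate 2 was the highest for Abcb4 and Abcc3 and the lowest for Abcg5, Atp8b1 and Abca1. Of the 45 pairs of genes, 4 passed an adjusted permutation p of 0.05 over the 12 arrays: Abcg5 with Abcg8, Abcc3 with Slc51b, Abcb4 with Abcc2 and Atp8b1 with Abcc3.

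The values of Abcc3 and Slc51b went in opposite directions over arrays. Slc51b was dim, with a mean of 4.997 below the 95th percentile of negative control probe sets (7.05), which limits the reading of this pair. Abcc3 and Slc51b had r = −0.85 (permutation p = 0.00078, adjusted 0.0191) and rho = −0.74 (permutation p = 0.00787, adjusted 0.0708). Without F2 replicate 2 and control replicate 2, r was −0.83 (permutation p = 0.00531, adjusted 0.0666), and it was −0.85 with the group means taken out and −0.82 with the means of the array sets taken out. Within the higher array set r was −0.83 and in the lower set of 5 arrays −0.85.

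Atp8b1 and Abcc3 were also inversely related, with r = −0.77 (permutation p = 0.00319, adjusted 0.0359) and rho = −0.79 (permutation p = 0.00315, adjusted 0.0472). This r was −0.80 without F3 replicates 3 and 4, −0.70 with the group means taken out and −0.80 within the higher set.

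The canalicular exporters Abcb4 and Abcc2 were positively related, with r = 0.75 (permutation p = 0.00191, adjusted 0.0286) and rho = 0.84 (permutation p = 0.00113, adjusted 0.0268). Without F2 replicate 4 and control replicate 2 r was 0.85, and within the higher array set it was 0.70. Abcb11 did not follow Abcb4 or Abcc2, at r = 0.11 and 0.26 (permutation p = 0.738 and 0.415).

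**Figure D5:**
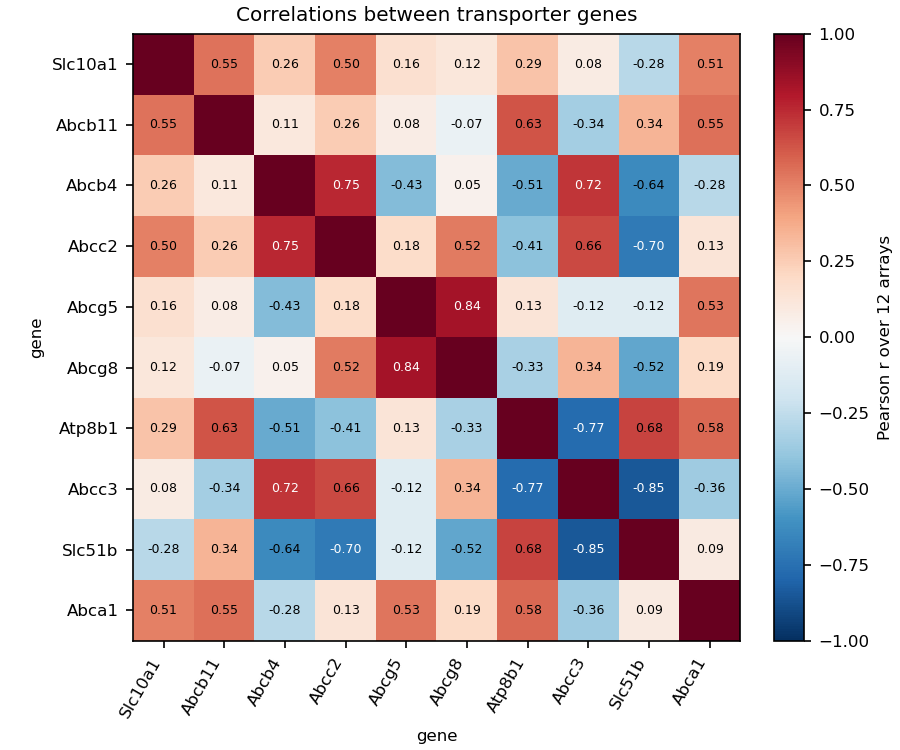
Pearson's r between each pair of the 10 transporter genes over the 12 arrays (colour and printed number). Abcc3 is positively related to Abcb4 (0.72) and Abcc2 (0.66) and negatively to Slc51b (−0.85) and Atp8b1 (−0.77), while Abcg5 and Abcg8 form a pair (0.84).

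The liver's acute phase genes, which encode proteins secreted in inflammation, were set beside the transporters. The list of 16 genes, including Saa1, Saa2, Lcn2 and Orm2, was chosen after the values were seen, so its relations are a description and no p is given. Its median deviation was highest in F2 replicate 2 (1.02), followed by F3 replicate 4 (0.42), control replicate 1 (0.36) and F3 replicate 3 (0.22), the 4 arrays lowest in Abcc3. The range was −0.32 to 1.02 in F2, −0.26 to 0.42 in F3 and −0.48 to 0.36 in controls, so the groups overlapped. Over the 12 arrays its r was −0.90 with Abcc2 (rho −0.77) and −0.86 with Abcc3 (rho −0.83). Without F2 replicate 2 and F3 replicate 4 r was −0.86 for Abcc2 and −0.77 for Abcc3, and within the higher array set, which holds neither, it was −0.89 and −0.76.

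For Slc51b the r with the acute phase median was 0.78 (rho 0.56), with 0.34 when those 2 arrays were left out and 0.63 within the higher array set. Abcb4 had r = −0.68 (rho −0.57), with −0.68 and −0.74 in the same cases, and Atp8b1 had r = 0.60 (rho 0.69), with 0.56 and 0.91. Slc10a1, Abcb11, Abcg5, Abcg8 and Abca1 had r between −0.48 and 0.05 over the 12 arrays. Without those 2 arrays their r was 0.17, 0.22, 0.46, 0.20 and 0.49, in the same order. Within the higher array set it was 0.43, 0.49, 0.40, −0.16 and 0.72. The part of the acute phase values in the group differences was not tested.

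The protein-coding genes with the most similar pattern over the 12 arrays, out of 13558 ranked for each transporter, are given as a description with no test. For Abcc3 this was Decr2 (r = 0.98), a peroxisomal reductase of unsaturated fatty acid oxidation, and for Abcc2 it was Cat (0.97), catalase. For Abcb4 it was Hsd17b4 (0.96), the peroxisomal bifunctional enzyme, and for Slc10a1 it was Gm14305 (0.95), a predicted gene. Abcg8 was nearest to Cyp4f15 (0.93) and Abcg5 to Cyp1a2 (0.90), both cytochrome P450 genes. The nearest to Atp8b1 was Leap2 (0.91), which encodes an antimicrobial peptide, and to Abcb11 it was Mrpl44 (0.90), of the mitochondrial ribosome. Slc51b was nearest to Slc10a3 (0.89) and Abca1 to Cmtm6 (0.86).

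The nuclear receptors that act on these transporters were not called either. Nr1h4, which encodes FXR, averaged 9.25 in F2 and 9.34 in F3, against 9.23 in controls, with differences of 0.01 (SE 0.089) and 0.11 (SE 0.089). Nr1h3, the liver's main LXR gene, differed by −0.04 (SE 0.059) in F2 and −0.08 (SE 0.059) in F3. Nr0b2 encodes SHP, the repressor that FXR induces, and varied widely within groups, from 7.29 to 9.10 among F3 arrays alone. Its difference was 0.12 (SE 0.35) in F2 and 0.06 (SE 0.35) in F3. Nr5a2, or LRH-1, differed by −0.01 and 0.05 (SE 0.083 each). None of these passed the test by limma.

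Rxra encodes the retinoid X receptor that pairs with FXR and LXR. It measured 9.77, 9.70, 9.58 and 9.58 in F3 livers, against 9.90, 9.99, 9.84 and 9.90 in F2 livers and 9.76, 9.73, 9.74 and 9.91 in control livers. All 4 F3 arrays lay below all 4 F2 arrays. In F3 minus F2 the arrays did not overlap for 1 of the 19 regulators tested, against 2.46% of all genes. The F3 minus F2 difference of Rxra was −0.25 (SE 0.066), with limma's unadjusted p = 0.0026 and adjusted p = 0.9999. Of the 19 regulators tested, 12 lay above control and 7 below in F2, and 8 above and 11 below in F3, and limma called 0. Their median difference was 0.01 in F2 and −0.03 in F3, against −0.01 for all genes in both. The regulators also included Nfe2l2, which encodes NRF2, at −0.24 (SE 0.13) in F2, and the glucocorticoid receptor gene Nr3c1 at 0.10 (SE 0.064) in F3.

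Other carriers were likewise not called. Of 9 other uptake genes tested, 5 lay above control in F2 (median 0.0008) and 6 in F3 (median 0.08). The organic anion carrier Slco1a1, which also takes up bile acids, measured 10.61 in F2 and 10.70 in F3 on average, against 10.46 in controls, with differences of 0.15 and 0.24 (SE 0.11 each). Slco1b2 differed by 0.11 (SE 0.13) in F3, Slco1a4 by −0.37 (SE 0.28) in F2 and the lipoprotein receptor gene Lrp1 by 0.13 (SE 0.089) in F2. Of 18 other exporters and partner genes tested, 12 lay below control in F2 (median −0.03) and 10 in F3 (median −0.02). Abcc4, or MRP4, a further sinusoidal exporter, differed by −0.25 (SE 0.15) in F2 and −0.26 (SE 0.15) in F3. The sterol uptake gene Npc1l1, close to the testing level, differed by −0.10 (SE 0.075) in F2. The group means of Abcc4, Slco1a4 and Npc1l1 all lay below the 95th percentile of negative control probe sets (7.05).

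Of 18 bile acid synthesis enzymes tested, 12 lay below control in F2 (median −0.04) and 10 in F3 (median −0.02), and limma called 0. Cyp8b1, the sterol 12-alpha-hydroxylase, averaged 10.08 in F2 and 9.84 in F3, against 10.56 in controls, with differences of −0.48 and −0.71 (SE 0.17 each). Limma's unadjusted p for Cyp8b1 was 0.0148 in F2 and 0.0012 in F3, with adjusted p = 0.9999 and 0.9998. The sterol carrier gene Scp2 lay at 0.11 and 0.12 (SE 0.059 each). Cyp8b1, lower in F3, and Scp2, higher in F3, were the 2 of 18 enzymes without overlap in F3 minus control, against 1.63% of all genes. Without overlap were 0 of 18 in F2 minus control and 0 in F3 minus F2. FXR targets lay below control in 11 of 16 genes tested in F2 (median −0.05) and above control in 9 of 16 in F3 (median 0.03). Among them Pklr was at −0.34 (SE 0.17) and Kng1 at 0.09 (SE 0.068) in F2, and Kng1 at 0.15 (SE 0.068) in F3. LXR targets lay below control in 11 of 16 in F2 (median −0.04) and 9 of 16 in F3 (median −0.02), with Fasn at −1.14 (SE 0.42) and Acaca at −0.42 (SE 0.27) in F2, and the phospholipid transfer protein gene Pltp at −0.61 (SE 0.36) in F3. The FXR list includes Abcb11, Abcb4, Abcc2 and Slc51b, and the LXR list includes Abca1, Abcg5 and Abcg8.

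Markers of other cells gave no called gene either. Cholangiocytes line the bile ducts and express bile acid carriers of their own. Their median marker deviation lay between −0.06 and 0.10 in F2, −0.11 and 0.05 in F3, and −0.15 and 0.19 in controls. It rests on 3 dim markers, Krt19 (5.01), Krt7 (5.46) and Sox9 (6.99), all below the 95th percentile of negative control probe sets (7.05). The Kupffer cell markers, of macrophages that also express Abca1, ranged from −0.20 to 0.46 in F2, −0.42 to 0.34 in F3 and −0.16 to 0.16 in controls. Both ranges overlapped between groups. The stellate cell markers, of the vitamin A storing cells of the liver, ranged from 0.03 to 0.12 in F3 and −0.14 to 0.01 in F2, without overlap, and from −0.16 to 0.11 in controls. Of the 6 stellate markers 5 lay above F2 in F3, with a median difference of 0.12, and limma called 0. Taken singly, 0 of the 6 separated the F3 from the F2 arrays, against 2.46% of all genes. The hepatocyte, endothelial, intestine, pancreas and adipose marker ranges overlapped in each comparison. The part of cell content in the transporter values was not tested.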

How the data were processed

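The values were log2 expression per probe set, 1 column per array, deposited by the authors. The submitters' processing notes name Affymetrix Expression Console. The version, algorithm and normalization were not given in the sources used here. Per the labels, 100 ng of total RNA went into a whole-transcript kit. Array medians lay between 4.49 and 4.60. The table held 72688 probe sets. Of 32750 annotated ones, 30604 had 1 symbol and 2146 several, and only the first kind was used, with symbols updated by Entrez identifier through the RefSeq table of GRCm38.p6. For genes with several probe sets the brightest was kept. Genes with a mean above 4.55 were fitted over 12 arrays by lmFit and eBayes of limma 3.58.1 (R 4.3.3) without covariates, leaving 9 residual degrees of freedom, with Benjamini-Hochberg adjustment over 18725 genes at 0.05. Intervals are 95% limma intervals. Correlations used 100000 resamples, or all orders within the higher array set and within groups. Both procedures were tested on simulated data. The transporter genes and the other lists were chosen with earlier results of these data known. Named genes are the 10 transporters, 4 receptor genes, the 2 genes with the lowest p per list in F2 and in F3 (for lists of other cells, counts and levels only), and the most similar gene of each transporter. Tmem30a came from that rule, and per-array values were added for it and Rxra after they were seen. Promoter windows are from RefSeq (GRCm38.p6), and the GATA box was added after the sequences were read. Other settings are given in the closing section.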

Additional observations from a re-analysis of the deposited data

Results flagged for a closer look

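Of 30 combinations of gene and group examined, 4 had 1 array whose gap to the nearest of the other 3 took up more of the group's range than Dixon's 95% limit for 4 values. About 1 in 20 groups passes this limit by chance. In F2, Abcc2 stood at 10.54 in replicate 2, against 11.22 to 11.29 in the other 3 arrays. In controls, Abcg5 stood at 9.68 in replicate 2, against 10.46 to 10.51, and Abcb4 at 9.88 in the same replicate, against 9.34 to 9.41. Slc10a1 stood at 11.39 in control replicate 3, against 11.63 to 11.67.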

How the results depend on the processing

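Limma called 0 genes, and 0 of the 10 transporters, in each comparison without a filter and with a stricter one (mean above 5.92), with quantile-normalized or median-centred arrays, with probe sets of a gene averaged, with trend and robust options, with array weights, and with only the groups compared. The same held at an adjusted p under 0.10, with the array set as a block, in the higher array set alone, without F2 replicate 2 and control replicate 2 together, and without any 1 array. The exception was the lower array set alone, where F3 is 1 array assumed to vary like the other groups: it gave 2 genes in F3 minus control (Obp2a and Treh) and 3 in F3 minus F2 (these and Wfdc12), named after their values were seen. With the replicate number as a block 0 genes were called in each comparison and the transporter differences were the same; same-numbered arrays share only a number, as the correlations of their deviations ran from −0.51 to 0.32. The filters, the averaging of probe sets, trend and robust options, only the groups compared and the replicate block leave the transporter differences identical by construction. Of 210 transporter values under the other 7 settings, 35 changed sign, all with a size of at most 0.24 in the full fit; the causes were not tested.

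The values that changed sign were, in F2 minus control, 0.025 for Abcc2, −0.049 for Atp8b1, 0.18 for Abcc3 and −0.084 for Abca1 with array weights, 0.019 for Abcc2 and −0.00042 for Atp8b1 in the higher set, and −0.0092 for Abcb4, 0.17 for Slc51b and −0.058 for Abca1 in the lower set. Without F2 replicate 2 and control replicate 2 together they were 0.038 for Slc10a1, 0.13 for Abcc2, −0.025 for Atp8b1, 0.30 for Abcc3 and −0.021 for Abca1. In F3 minus control they were −0.014 for Slc10a1 with quantile normalization, 0.011 for Abcb4 and −0.013 for Abca1 with array weights, and 0.010 for Abcg5 with the array set as a block. They were −0.019 for Abcb11, 0.24 for Abcg5 and 0.038 for Abcg8 in the higher set, 0.21 for Abcb4 and 0.069 for Abcc2 in the lower set, and 0.098 for Abcb4 and 0.027 for Abcc2 without both arrays. In F3 minus F2 they were −0.0060 for Abcc2 and −0.042 for Abcg8 with quantile normalization, −0.068 for Abcc2 and −0.062 for Abcg8 with array weights, and −0.12 for Abcc2 in the higher set. They were 0.22 for Abcb4, −0.13 for Abcg5 and −0.10 for Abcg8 in the lower set, and −0.10 for Abcc2 and −0.14 for Abcg8 without both arrays.

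Leaving out 1 array at a time gave, in F2 minus control, −0.090 to 0.018 for Slc10a1, −0.062 to 0.17 for Abcb4, −0.16 to 0.093 for Abcc2, −0.42 to 0.054 for Abcc3, −0.31 to 0.10 for Slc51b and −0.061 to 0.13 for Abca1. In F3 minus control it gave −0.082 to 0.098 for Abcb4, −0.056 to 0.039 for Abcc2 and −0.22 to 0.054 for Abcg5. In F3 minus F2 it gave −0.20 to 0.033 for Abcb4, −0.10 to 0.15 for Abcc2 and −0.14 to 0.17 for Abcg8.

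The count of correlated pairs was 4 over the 12 arrays, 2 after the group means were taken out (Abcg5 with Abcg8 and Abcb4 with Abcc2), and 0 without the 2 farthest arrays. Within the higher set of 7 arrays it was 2, but these were Abcb4 with Abcc3 and Abcb4 with Slc51b, and the 4 pairs named in the results had adjusted permutation p of 0.131 to 0.152 there. Slc51b, the dimmest gene, is limited by signal over background.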
